A study of Mus musculus with 65 samples.

Results

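TAL1 peaks called with chromatin of 50 M cells (1 M being 1000000 cells) were set against those called with chromatin of 20 M cells, in the 6 TAL1 ChIP-seq lists of the sonication series that were assessed as Pass. The members were found from the call pattern alone. Peaks of the 6 lists that shared at least 1 bp were merged into 9914 sites, and each site was classed by how many lists of each side had called it. A site in all 3 lists of 50 M cells and in none of 20 M cells is here called a 50 M site. The reverse is a 20 M site, and a site in all 6 lists is a shared site. There were 515 50 M sites (5.19% of the 9914), 1 20 M site (0.0101%) and 2713 shared sites (27.4%). The 6 libraries are part of 65 samples with 53 deposited peak lists. Of these, 33 were used here, 19 for TAL1 and 14 for CTCF in the same cell line.

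All 6 libraries came from G1E-ER4+E2 cells, a mouse erythroid progenitor line derived from embryonic stem cells that lacks GATA1 and carries a GATA1 fusion to an estrogen receptor domain. The cells were given estradiol for 24 hours, which starts erythroid maturation, and all were precipitated with the same TAL1 antibody. The 50 M libraries had average chromatin lengths of 240 bp (7 sonication cycles), 226 bp (10 cycles) and 205 bp (15 cycles). The 20 M libraries had 256 bp (3 cycles), 202 bp (5 cycles) and 190 bp (7 cycles). Cell number and cycles are those that the study gives for its series, since the sample labels hold only the length. The 3 libraries of a side differ in sonication, and no source used here says that they came from separate cultures. Cell number, the batch of cells, sequencing depth and the day of preparation therefore cannot be told apart.

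TAL1 belongs to the basic helix-loop-helix transcription factors, and blood stem cells and red cell precursors both depend on it. It pairs with E proteins such as TCF3 and TCF12, and LMO2 and LDB1 bridge the pair to GATA1 or GATA2, so that many occupied sites hold part of an E-box (CTG) a short distance from a GATA element (AGATAA). Other sites lack this composite element, and some of those are bound through partner proteins. Erythroid genes such as those of the globins, of heme synthesis and of the red cell membrane are known targets of the complex.

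The composite element (CTG, any 8 bases, then AGATAA, on either strand) is shown at 7 of the sites named below, so that the DNA of both classes can be compared. Each line gives 57 bp of GRCm38 on the strand of the element, with the element in capitals and 20 bp on either side. The first 4 are 50 M sites and the last 3 are shared sites, each named for the protein-coding gene with the nearest transcript start.
Tjp1, 50 M site, chr7:65420079-65420135, minus strand: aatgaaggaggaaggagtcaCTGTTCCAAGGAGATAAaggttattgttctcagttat
Rchy1, 50 M site, chr5:91960975-91961031, minus strand: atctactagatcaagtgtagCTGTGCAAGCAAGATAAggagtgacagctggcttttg
Steap3, 50 M site, chr1:120259384-120259440, plus strand: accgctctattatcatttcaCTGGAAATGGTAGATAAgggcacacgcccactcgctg
Kit, 50 M site, chr5:75608064-75608120, plus strand: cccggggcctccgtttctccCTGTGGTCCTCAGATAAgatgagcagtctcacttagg
Atp2b4, shared site, chr1:133825753-133825809, plus strand: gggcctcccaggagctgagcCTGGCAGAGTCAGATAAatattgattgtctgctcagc
Lrpprc, shared site, chr17:84776753-84776809, plus strand: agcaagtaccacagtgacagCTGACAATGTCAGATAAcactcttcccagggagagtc
Tspan33, shared site, chr6:29701298-29701354, plus strand: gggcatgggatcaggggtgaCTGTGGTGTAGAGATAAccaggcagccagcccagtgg
The middle of the element lay 15, 6, 25 and −72 bp from the midpoint of the 50 M sites, in the order printed, and 38, 5 and 88 bp from that of the shared sites.

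The 3 lists of 50 M cells held 4474 (240 bp), 7868 (226 bp) and 9052 peaks (205 bp), against 3899 (256 bp), 3936 (202 bp) and 3529 (190 bp) in the lists of 20 M cells. Every 50 M list was longer than every 20 M list, and the 2 longest were those of 226 and 205 bp. The log10 of the peak number was 3.83 ± 0.162 with 50 M and 3.58 ± 0.0263 with 20 M cells (SD, n = 3 each; exact permutation test, two-sided, p = 0.1, adjusted p = 0.138 over 8 tests). With 3 libraries against 3, the smallest p that this test can give is 0.1. The lists hold no read counts, so that the depth of the libraries is unknown and its part in the peak number was not tested.

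The shorter lists lay inside the longer ones. The 2 long lists of 50 M cells held 97.9% to 98.9% of the peaks of each 20 M list, and the 240 bp list held 85.9% to 88.9%. Of the merged sites in a list, 641 (240 bp), 3140 (226 bp) and 4214 (205 bp) were in no list of 20 M cells. In the other direction, 32 (256 bp), 25 (202 bp) and 24 (190 bp) sites were in no list of 50 M cells. The count of 50 M sites was held down by the shortest of its 3 lists. Without the 240 bp list, 2340 sites were in both remaining 50 M lists and in no 20 M list.

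To take list length out of the comparison, each list was also cut to its 3529 peaks of highest −log10 p, as many as the shortest list holds. The 4956 merged sites of these lists then held 42 50 M sites (0.847%), 42 20 M sites (0.847%) and 2381 shared sites (48.0%). Lists of the same length give both sides the same number of calls, so a near balance of the classes comes with the construction. The cut fell at unlike strengths. The lowest −log10 p kept was 6.78, 16.1 and 19.2 in the 240, 226 and 205 bp lists. It was 5.752, 5.745 and 5.007 in the 256, 202 and 190 bp lists. Of the 42 50 M sites, 29 were also 50 M sites of the whole lists. Of the 42 20 M sites, 1 was, while 40 were called in the whole 226 bp list and 40 in the 205 bp list. In the equal-length lists, mean overlap was 87.0% for pairs of 50 M lists (85.8% to 88.8%, 3 pairs), 83.4% for pairs of 1 list from each side (81.1% to 85.0%, 9 pairs) and 82.8% for pairs of 20 M lists (81.9% to 83.9%, 3 pairs). The range for 1 list from each side took in that of the 20 M pairs and lay below that of the 50 M pairs. The pair closest in length, 205 bp of 50 M and 202 bp of 20 M cells, overlapped by 83.8%. The pair of 7 cycles, 240 and 190 bp, overlapped by 81.1%.

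**Figure D1:**
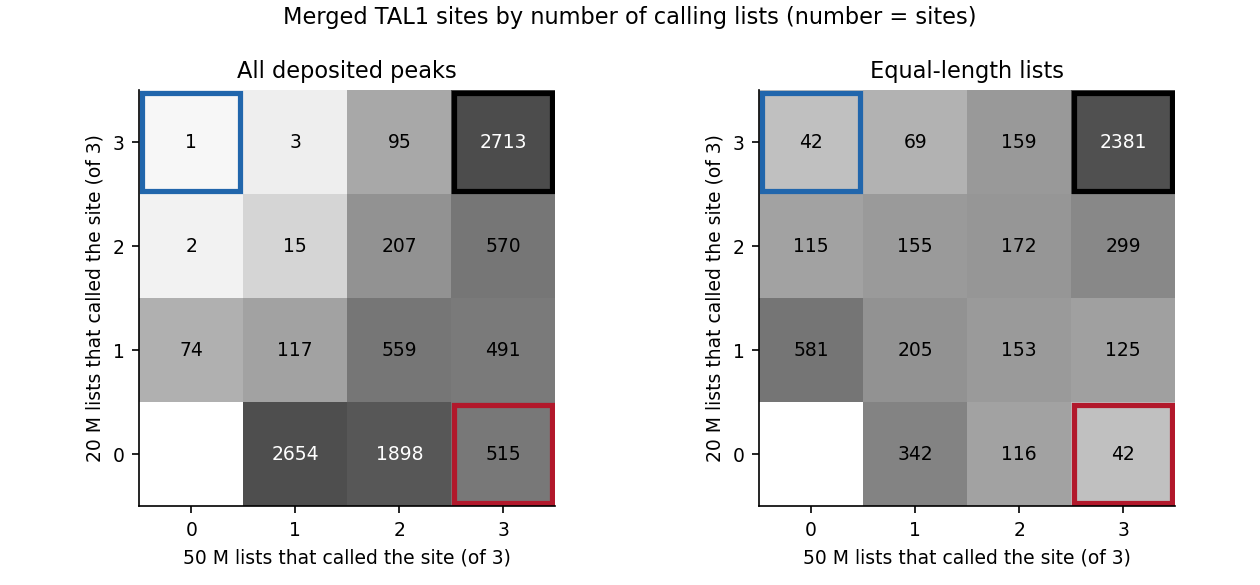
Merged TAL1 sites by the number of 50 M lists (x axis, 0 to 3) and of 20 M lists (y axis, 0 to 3) that called them, with all deposited peaks on the left and lists of 3529 peaks each on the right. The red frame marks the 50 M sites (515 and 42), the blue frame the 20 M sites (1 and 42) and the black frame the shared sites (2713 and 2381), and shading follows the log10 of the number of sites.

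The 50 M sites were weak peaks. Their median percentile rank by −log10 p among all peaks of a list was 17.4 (240 bp), 40.6 (226 bp) and 47.2 (205 bp), and their median −log10 p was 6.41, 10.7 and 12.8 in the same order. Shared sites had median ranks of 69.4, 82.7 and 84.9 in the 50 M lists and of 64.9 (256 bp), 65.3 (202 bp) and 61.2 (190 bp) in the 20 M lists. Ranks are part of what makes a call, so these values describe the classes and were not tested. At the edge of the class, the lowest of the 3 values of a 50 M site was at the caller's limit of 5 in the weakest, 6.21 in the median and 18.1 in the strongest. Of the 515, 93.0% had a lowest value below 10. Just outside the class, 491 sites were in all 3 50 M lists and in 1 20 M list, where their median −log10 p was 6.35. When only peaks with −log10 p of at least 10 were kept, there were 339 50 M sites, 0 20 M sites and 1652 shared sites.

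**Figure D2:**
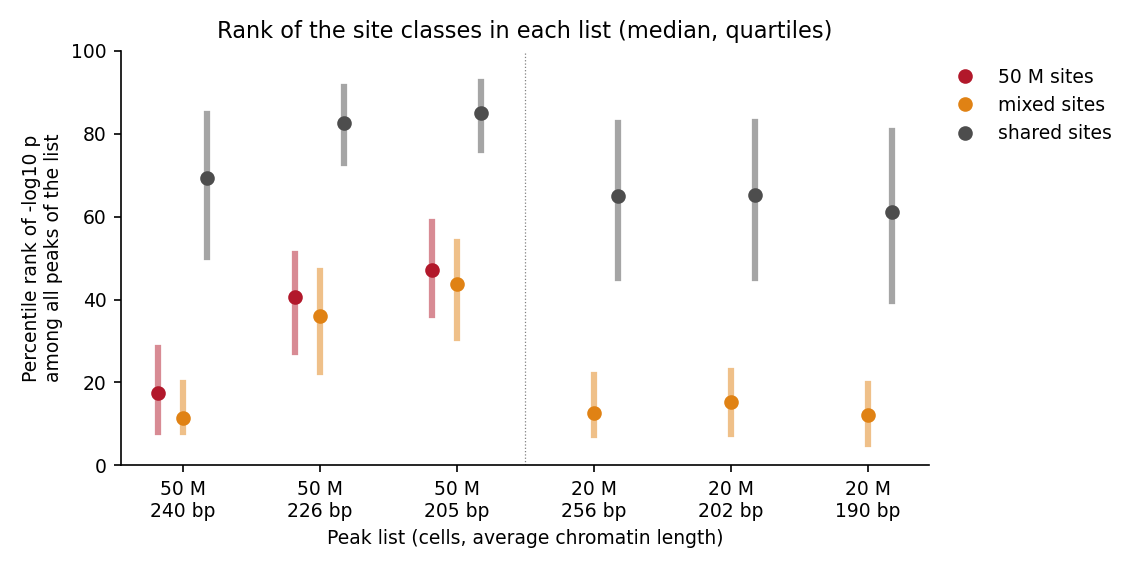
Percentile rank of −log10 p among all peaks of a list (y axis, 0 to 100) in the 3 lists of 50 M and the 3 of 20 M cells (x axis) for 50 M sites, mixed sites (3 calls, at least 1 from each side) and shared sites. Points are medians and bars run between the quartiles; 50 M sites sit at 17.4, 40.6 and 47.2, below the shared sites in the same lists.

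Tight junction protein gene Tjp1 had the strongest 50 M site by the lowest rank in its 3 lists. This intronic site at chr7:65419561-65420622 had −log10 p of 18.1, 29.2 and 40.9 in the 240, 226 and 205 bp lists. The next was an intronic site of Tcf12 (chr9:71931022-71932535), the gene of an E protein that pairs with TAL1, with 17.2, 25.8 and 28.5. Sites in Cpd, a carboxypeptidase gene (chr11:76838269-76839083, intron; 16.3, 28.6 and 33.0), and in Fbxw4 (chr19:45657686-45658477, intron; 16.8, 16.5 and 30.3) followed. The site in an exon of Vmp1 (chr11:86662943-86664629), an autophagy gene, reached 12.7, 36.6 and 52.9. The other 5 of the 10 strongest lay in Trpm7, an ion channel gene (exon), in Kiz, Rchy1 and Gab2 (introns), and between genes 9254 bp from the start of Nup160. In all 10, the 240 bp list held a value no higher than 18.1, and 2 or more of the 13 other TAL1 lists called the site.

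The single 20 M site lay at the promoter of Tpp1 (chr7:105751242-105751966), which encodes a lysosomal peptidase. Its −log10 p was 7.00 (256 bp), 6.25 (202 bp) and 5.04 (190 bp), the last of these near the limit of 5. By contrast, the strongest shared sites were near the top of the caller's scale. At the promoter of Ppp1r15a, a gene of the translational stress response, the 50 M lists had 315, 310.0 and 310.0 and the 20 M lists 310.0, 311 and 288. At Gypc, which encodes the red cell surface protein glycophorin C, they had 286, 310.0 and 310.0 with 50 M and 251, 251 and 241 with 20 M cells. At the site nearest to Cbfa2t3, which encodes the TAL1 complex partner ETO2, with its start 21084 bp away, the values were 238, 310.0 and 310.0 with 50 M and 252, 293 and 215 with 20 M cells. Sites nearest to Atp2b4, Tmem131, Lrpprc, Hdgf, Tspan33, Zfp790 and Rogdi complete the 10.

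A larger share of the 50 M sites than of the shared sites lay in introns, and a smaller share at promoters and in exons. A promoter is here the 1000 bp on either side of a protein-coding transcript start, and the intervals are 95% Wilson intervals that cover counting error only. Introns held 54.6% of the 50 M sites (50.2% to 58.8%) against 43.4% of the shared sites (41.6% to 45.3%) and 47.3% of all 9914 sites. Promoters held 10.5% of the 50 M sites (8.13% to 13.4%) against 14.7% of the shared sites (13.4% to 16.1%) and 12.3% of all sites. Exons held 8.16% of the 50 M sites (6.09% to 10.8%) against 12.1% of the shared sites and 9.91% of all sites, and in equal-length lists 11.9% of the 50 M and 12.3% of the shared sites. The space between genes held 26.8% against 29.8%, and 30.4% of all sites. The intervals of the 50 M sites took in the share of all sites at promoters and in exons, and lay above it in introns. Mixed sites, with 3 calls of which at least 1 came from each side, had 12.7% at promoters (574 sites). They had 10.8% in exons and 49.5% in introns (45.4% to 53.6%), an interval that overlapped that of the 50 M sites. Sites are not replicates, and these shares were not tested.

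The composite element was in the middle 500 bp of 8.93% of the 50 M sites (6.76% to 11.7%) and of 13.7% of the shared sites (12.4% to 15.0%), against 10.4% of all sites. It was in 10.8% of the mixed sites (8.52% to 13.6%) and in 8.98% of the sites of other patterns. The GATA element alone (AGATAA, either strand, composite matches included) was in 64.7% of the 50 M sites (60.4% to 68.7%). It was in 59.6% of the shared sites (57.7% to 61.4%) and 59.0% of all sites. AGATAA is mostly A and T, and the 50 M sites were lower in GC content, as given below. The part of base composition in these shares was not tested. An E-box (CANNTG, which most windows of this length hold) was in 94.2% of the 50 M and 95.1% of the shared sites, against 94.8% of all sites. Sites that shared a base with a CTCF peak of at least 50% of the 14 Pass CTCF lists of the line made up 3.11% of the 50 M and 5.09% of the shared sites, against 4.25% of all sites. The 50 M sites were 828 bp wide in the median, against 818 bp for mixed sites and 1036 bp for shared sites. A site spans all of its merged peaks, so the number of calls is part of its width. Of the 50 M sites, 17.9% lay within 10 kb of a shared site, close to the 17.8% of mixed sites and 18.3% of the sites of other patterns.

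At the level of whole lists, the same measures were compared over libraries. The promoter share of a list was 12.3% ± 0.442 with 50 M and 13.7% ± 0.478 with 20 M cells, without overlap of the sides (SD, n = 3 each; exact permutation p = 0.1, adjusted p = 0.138). In lists of equal length it was 13.1% with 50 M and 13.8% with 20 M cells, with overlap (exact permutation p = 0.3). The share of peaks with the composite element was 11.5% ± 1.09 with 50 M and 13.05% ± 0.186 with 20 M cells (SD, n = 3 each; exact permutation p = 0.1, adjusted p = 0.138). In lists of equal length the order turned, with 13.5% for 50 M and 13.3% for 20 M cells (exact permutation p = 0.3). The CTCF overlap (4.18% with 50 M, 4.55% with 20 M; exact permutation p = 0.2) and the median width (753 bp with 50 M, 809 bp with 20 M; exact permutation p = 0.2) also turned in lists of equal length.

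Base composition set the classes apart in whole and in equal-length lists. This measure was added after the medians of the classes had been seen. GC content of the middle 500 bp had a median of 44.2% at the 50 M sites (quartiles 41.0% and 47.4%). It was 48.2% at the mixed sites (44.8% and 51.8%) and 48.6% at the shared sites (44.8% and 52.0%). The median was 46.8% at all 9914 sites and 46.0% at the sites of other patterns. Among sites in all 3 lists of 50 M cells, the median GC was 44.2%, 45.2%, 46.7% and 48.6% where 0, 1, 2 and 3 lists of 20 M cells had called the site. In equal-length lists it was 41.5% at the 42 50 M sites (from 32.8% to 48.6%) and 50.3% at the 42 20 M sites (from 41.4% to 67.4%). The quartiles there were 38.0% and 44.4% against 46.95% and 54.6%, so that the ranges between the quartiles did not overlap. Outside promoters the medians were 41.5% (40 sites) and 50.6% (31 sites).

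In the equal-length classes, promoters held 2 of the 42 50 M sites (4.76%, 1.32% to 15.8%) and 11 of the 42 20 M sites (26.2%, 15.3% to 41.1%), against 13.3% of all 4956 sites. The Wilson intervals overlapped, that of the 50 M sites took in the share of all sites, and no test was made. Introns held 23 of the 50 M and 12 of the 20 M sites, against 45.6% of all sites. Promoter sites of the 20 M class lay at Plscr3, Impdh2, Top3b, Clic1, Prkag1, Pdpk1, Nisch, Tvp23b, Ccl25, B230118H07Rik and Tpp1. Impdh2 encodes a rate-limiting enzyme of guanine nucleotide synthesis. The site at the start of Plscr3 (chr11:69846103-69846884) was the strongest of the 42 20 M sites by lowest rank. It had a GC content of 67.4% and −log10 p of 13.8, 16.7 and 10.6 in the 256, 202 and 190 bp lists.

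The same pattern was present within the 2713 shared sites, which needed a call in every list. Sites in all 3 50 M lists but in only 2, 1 and 0 lists of 20 M cells numbered 570, 491 and 515. The reverse gave 95, 3 and 1. The 20 M calls thus mostly set which sites were shared, and the values below are not independent of the class difference. The part of that choice in them was not tested. Each list's shared sites were ranked by −log10 p, and Spearman's rho of that rank with GC content was taken over the sites of each list. It was −0.0081 (240 bp), 0.081 (226 bp) and 0.043 (205 bp) in the 50 M lists, against 0.236 (256 bp), 0.161 (202 bp) and 0.146 (190 bp) in the 20 M lists. Every 50 M list had a lower rho than every 20 M list. The part of chromatin length in these values was not tested. The mean was 0.039 ± 0.045 with 50 M and 0.181 ± 0.048 with 20 M cells (SD, n = 3 each; exact permutation test, two-sided, p = 0.1, the smallest possible and outside the 8 adjusted tests). These are correlations across sites of 1 library, which share its depth, and sites are not replicates.

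The difference of the mean rank, 50 M minus 20 M, had a rho of −0.39 with GC content over the 2713 sites. In the lowest of 5 GC bins (30.6% to 44.0%, 569 sites) the mean rank was 49.97 with 50 M and 43.8 with 20 M cells, and 72.9% of sites ranked higher with 50 M. In the highest bin (53.2% to 72.8%, 526 sites) it was 52.8 with 50 M and 58.7 with 20 M cells, and 25.1% of sites ranked higher with 50 M. Outside promoters the rho of the difference was −0.37 (2314 sites), and with fold enrichment in place of −log10 p it was −0.36. The 4 other Pass lists fell on both sides, with a rho of rank and GC of 0.027 (298 bp), 0.032 (269 bp), 0.161 (238 bp) and 0.164 (221 bp). Cell number, cycles and batch cannot be told apart in this pattern.

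**Figure D3:**
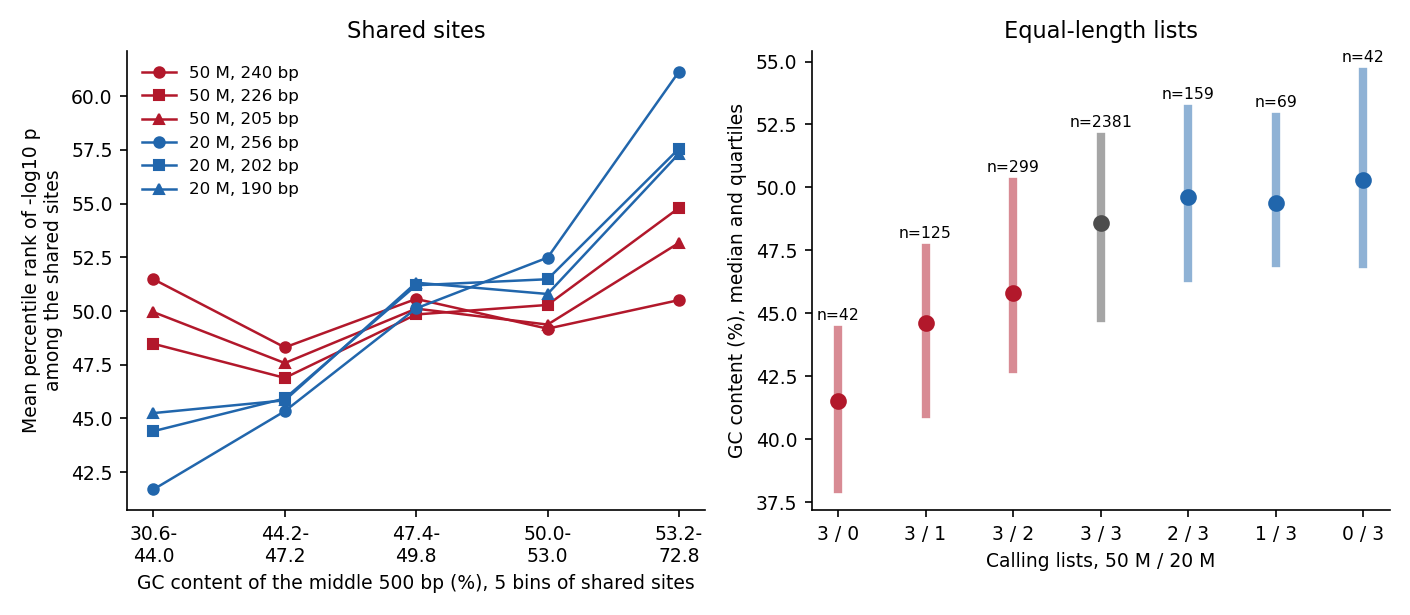
Left, mean percentile rank of −log10 p among the 2713 shared sites (y axis) in 5 bins of GC content (x axis, percent) for each of the 6 lists; the 50 M lists (red) stay between 46.9 and 54.8, while the 20 M lists (blue) lie at 41.7 to 45.2 in the lowest bin and at 57.3 to 61.1 in the highest. Right, median and quartiles of GC content (y axis, percent) of sites in equal-length lists by the number of 50 M and 20 M lists that called them (x axis), with medians of 41.5% for 50 M sites and 50.3% for 20 M sites.

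For single shared sites, limma was fitted to these ranks over all 2713 sites. Of them, 6 ranked higher (0.221%) and 9 ranked lower (0.332%) with 50 M cells at an adjusted p of 0.05 or less. At an unadjusted p of 0.05 or less there were 220 and 203. The calls did not hold for fold enrichment: ranked by that column, no site passed in either direction (202 and 203 at an unadjusted p of 0.05 or less). Without the 240, 226, 205, 256 or 202 bp list none ranked higher (157 to 223 at an unadjusted p of 0.05 or less) and 0 to 5 ranked lower, and without the 190 bp list 7 ranked higher and 4 lower. In ranks taken within bins of GC content, 0 ranked higher and 2 lower (162 and 153 at an unadjusted p of 0.05 or less).

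The site in an intron of Msi2 (chr11:88604286-88605866), which encodes an RNA-binding protein of blood stem cells, had −log10 p of 16.4, 40.6 and 54.7 in the 50 M lists and of 5.79, 6.66 and 6.01 in the 20 M lists. Its mean rank was 41.5 with 50 M and 5.03 with 20 M cells, a difference of 36.4 ± 7.57 (SE; limma adjusted p = 0.0336). A site in an intron of Atp7a (chrX:106043676-106044610), a copper transporter gene, differed by 38.7 ± 7.97 (SE; limma adjusted p = 0.0336), with ranks of 77.3, 76.2 and 70.9 in the 50 M lists and of 26.6, 42.4 and 39.4 in the 20 M lists. With identical coordinates, the sites in Msi2 and Atp7a each passed in 3 of 11 alternative fits. The other 4 that ranked higher lay nearest to Slc1a3, Gm13691, Col4a3 and Rere. In Rere, a corepressor gene, 3 50 M sites lay within the gene or 10 kb of it as well.

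Among sites that ranked lower with 50 M cells, the one in an intron of Alg9 (chr9:50832348-50833769), a gene of protein glycosylation, had the smallest p. Its nearest transcript start was that of Ppp2r1b, 23865 bp away. Its ranks were 89.5, 85.4 and 86.8 in the 50 M lists and 97.0, 98.7 and 96.3 in the 20 M lists, a difference of −10.1 ± 1.36 (SE; limma adjusted p = 0.0019), and it passed in 8 of the 11 alternative fits. The site nearest to Jarid2 (chr13:44501521-44502425), which lay between genes 228801 bp from the start of this Polycomb partner gene, had −log10 p of 5.88, 9.22 and 14.2 in the 50 M lists and of 11.01, 24.2 and 15.0 in the 20 M lists. It lay near the bottom of the shared sites with 50 M cells, at a mean rank of 1.36, against 44.9 with 20 M cells (difference −43.6 ± 9.07, SE; limma adjusted p = 0.0336), and passed in 1 of the 11 alternative fits. The promoter of Sde2 (chr1:180850427-180851530) was the only promoter among the 15 and differed by −7.42 ± 1.27 (SE; limma adjusted p = 0.0112), and passed in 6. Ceacam1, Dhrs3, Plekhg3, Npvf, Gsap and Prim2 were nearest to the other 6. GC content ran from 39.0% to 48.0% at the 6 that ranked higher and from 45.4% to 67.8% at the 9 that ranked lower with 50 M cells.

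**Figure D4:**
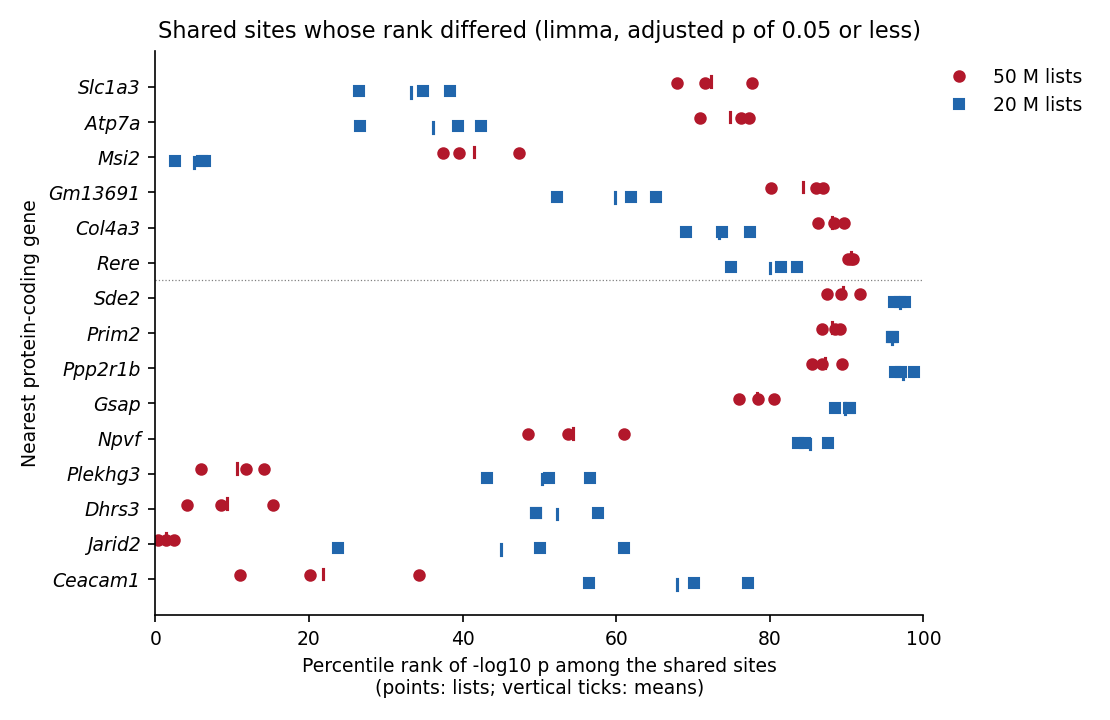
Percentile rank of −log10 p among the 2713 shared sites (x axis, 0 to 100) in the 3 lists of 50 M cells (red circles) and the 3 of 20 M cells (blue squares) for the 15 sites past the limma threshold, by the protein-coding gene with the nearest transcript start (y axis). Vertical ticks are means. At each site the ranks of both sides do not overlap, with Msi2 at 37.5 to 47.3 against 2.51 to 6.52. Of all 2713 shared sites, every 50 M rank was above every 20 M rank at 281 and below at 278.

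Most of the order was common to both sides. Spearman's rho between the ranks of shared sites was 0.913 to 0.936 for pairs of 50 M lists, 0.838 to 0.889 for pairs of 1 list from each side and 0.870 to 0.891 for pairs of 20 M lists. The mean rank differed by at most 10 points at 70.3% of the shared sites.

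Calls in the 13 TAL1 lists outside the comparison were not used by the rule, but 4 of these lists come from the same series. The 13 lists show whether 50 M sites recur elsewhere, and mixed sites, which have 3 calls too, are set beside them. Mixed sites are not balanced between the sides. Of the 574, 559 were in 2 lists of 50 M and 1 of 20 M cells. Only 10 were in the 240 bp list, against 555 in the 226 bp and 568 in the 205 bp list. The Pass list of 298 bp (9763 peaks) called 96.9% of the 50 M sites, 96.7% of the mixed sites and 99.9% of the shared sites. The other 3 Pass lists called 34.2% (221 bp), 17.9% (269 bp) and 6.80% (238 bp) of the 50 M sites, 31.5%, 12.9% and 6.10% of the mixed sites, and 93.4%, 85.6% and 79.0% of the shared sites. In the Low pass lists, 11.1% (260 bp), 1.17% (176 bp), 0.777% (289 bp) and 0.388% (263 bp) of the 50 M sites were called. None of the 5 Fail lists called a 50 M site, which allows a share of up to 0.740% (Wilson).

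Over the 13 lists, the share called of the 50 M sites exceeded that of the mixed sites by 1.07 percentage points (6 lists higher, 4 lower; exact sign-flip permutation test, two-sided, p = 0.104, adjusted p = 0.138). That difference did not pass the threshold. Without the 4 lists of the same series the difference was 0.901 points (exact sign-flip permutation p = 0.172). It changed sign when 1 list of 50 M cells was left out, to −4.72, −4.34 and −4.19 points (exact sign-flip permutation p = 0.00195, 0.00684 and 0.00195). The 50 M sites then needed only 2 calls, while mixed sites had 3 calls from fewer lists. The part of either change was not tested. The comparison with the 20 M class (5.32 points; exact sign-flip permutation p = 0.0703) rests on 1 site. It was 2.91 points without the 221 bp list, whose labels give TAL1 as title and CTCF as antibody, and 13.9 points over the Pass lists alone. In equal-length lists, 50 M sites exceeded 20 M sites by 5.31 points (4 lists higher, 3 lower; exact sign-flip permutation p = 0.281). There the Low pass list of 260 bp, from the 50 M series, called 21 of the 42 50 M sites (50%, 35.5% to 64.5%) and 2 of the 42 20 M sites (4.76%, 1.32% to 15.8%). The Low pass list of 176 bp, from the 20 M series, called 0 of the 42 50 M sites, which allows up to 8.38%, and 2 of the 42 20 M sites.

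**Figure D5:**
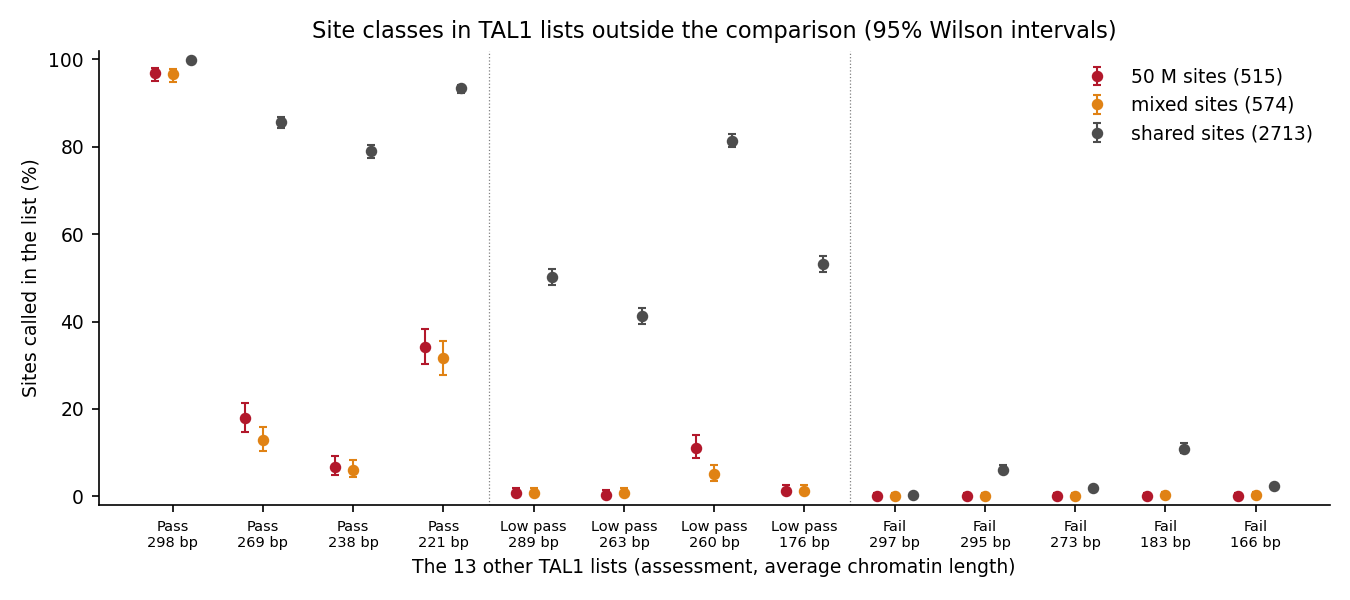
Percent of the 515 50 M sites, 574 mixed sites and 2713 shared sites (y axis) that each of the 13 other TAL1 lists called, by assessment and average chromatin length (x axis), with 95% Wilson intervals. The Pass list of 298 bp holds 96.9% of the 50 M sites, while the other lists hold between 0% and 34.2%.

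Genes were assigned a site where it lay within the gene or 10 kb of it. A 50 M site was assigned to 558 of 21951 protein-coding genes (2.54%), a shared site to 2406 (10.96%) and the 20 M site to 4 (0.0182%). A site of any pattern was assigned to 6068 genes (27.6%). Of the 26 erythroid regulator genes, 23 had a site of any pattern, 4 had a 50 M site (Runx1, Sox6, Kit and Jak2) and 15 had a shared site. Red cell membrane and iron genes had 5 of 26 with a 50 M site (Add2, Kel, Xk, Slc11a2 and Steap3) and 22 with a shared site. For partners of the TAL1 complex the counts were 3 of 12 (Tcf3, Tcf12 and Ssbp2) and 6. For globin and heme genes they were 2 of 19 (Hbb-bt and Abcb10) and 12, and for genes of maturation and survival 2 of 20 (Bcl2l1 and Ccnd2) and 13. None of the 8 lists had a gene with the 20 M site. In equal-length lists, Tcf12 was the only listed gene with a 50 M site, against 0.251% of all protein-coding genes.

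For genes of other lineages the counts of shared sites were lower. Megakaryocyte genes had 2 of 12 with a 50 M site, Pf4 and Ppbp, which share 1 site, and 4 with a shared site. Stem and progenitor genes had Meis1 with a 50 M site and Hhex with a shared one, of 12. Granulocyte and monocyte genes had none of 12 with a 50 M site, and Spi1 and Cebpe had a shared one.

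Of the 18 50 M sites of listed genes, 16 had a −log10 p below 10 in the 240 bp list (88.9%), against 92.4% of all 515 50 M sites. The intronic site of Kit (chr5:75607718-75608609), the receptor of kit ligand, had −log10 p of 6.74, 10.97 and 13.6 in the 240, 226 and 205 bp lists, and the composite element shown above. That of Runx1 (chr16:92711948-92713012), a factor of blood stem cells, had 5.78, 19.7 and 22.1, and a shared site lay within 10 kb. In Sox6 (chr7:115903995-115904869), which helps silence embryonic globin genes, the values were 5.44, 9.88 and 21.8. Jak2 (chr19:29271046-29271847), the kinase of the erythropoietin receptor, had 5.47, 13.1 and 15.2 at an exonic site. In these 4 genes the 240 bp list stayed below 7 and at least 1 of the other Pass lists called the site. Over all 515 50 M sites, the median in the 240 bp list was 6.41, and the Pass list of 298 bp alone called 96.9%.

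Tcf3 (chr10:80421471-80422352), which encodes the E proteins E12 and E47, had an intronic site with 5.14, 16.8 and 10.1. Ssbp2 (chr13:91509266-91510161), which encodes a protein that stabilises LDB1, had 5.47, 16.5 and 18.1. At Steap3 (chr1:120258913-120259860), the ferrireductase gene of iron uptake in red cell precursors, the intronic site had 8.76, 12.99 and 23.1. Slc11a2, an iron transporter gene, had 6.13, 8.601 and 15.6 at an exonic site whose nearest transcript start was that of Gm5475. The products of Kel and Xk are joined as a blood group complex. Kel had 5.71, 7.98 and 22.1, and Xk had 6.83, 10.1 and 7.41. Add2, a membrane skeleton gene, had 6.47, 11.9 and 6.42. In all 7 genes the lowest value was below 9 and every value below 24.

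The site at Hbb-bt (chr7:103811195-103812725), an adult beta-globin gene, overlapped an exon and had 8.66, 27.4 and 17.1 with 50 M cells. Hbb-bt has a near-identical neighbour, Hbb-bs, and reads of such copies may be split or lost in mapping, so its call is uncertain. In Abcb10, a mitochondrial transporter gene of erythroid cells, the values were 5.26, 5.57 and 18.7. Ccnd2, a cyclin gene, had 10.8, 9.75 and 18.9, and Bcl2l1, which encodes the survival protein BCL-XL, had 5.17, 7.64 and 11.4. The intergenic site near Ppbp and Pf4, both platelet chemokine genes, had 7.47, 13.3 and 18.05. Meis1, a homeobox gene of stem cells, had 5.70, 7.27 and 5.78, and none of the 13 other lists called its site.

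Listed genes whose sites of these classes were all shared included the main regulators of the lineage. Gata1, Gata2, Tal1, Klf1 and Klf13 were among 14 such erythroid regulators, and Lmo2, Ldb1, Cbfa2t3 and Ssbp3 made up the 4 among complex partners. Hbb-y, Hba-x, Alas2 and Alad were among 11 globin and heme genes, and Slc4a1, Gypc and Ank1 among 19 membrane and iron genes. Bnip3l, Map1lc3b, Xpo7, Trim58 and Ube2o were among 11 maturation and survival genes.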

How the data were processed

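TAL1 ChIP-seq of G1E-ER4+E2 cells was read from deposited peak lists. Bowtie was used by the authors to align reads against GRCm38 (mm10), reads on the mitochondrial genome and unplaced sequences were dropped, and MACS gave 1 peak list per library. Versions in the submitters' processing notes are 1.0.0 for Bowtie and 1.8.4 for bcl2fastq, while the study's methods give an earlier Bowtie. The p cutoff is not given in the sources used here. Each deposited list gives the fold enrichment of a peak over background, a ratio, and the −log10 of its p-value, from 5 up to a limit near 310. Both depend on depth, which is unknown, so they were used as ranks within a list.

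The cell numbers came from the study, and the lengths of 3 libraries (190, 176 and 166 bp) from their labels, where the study's own display prints other lengths, so they are uncertain. Sites, motifs (either strand) and GC content were computed with Python 3.11.15, numpy 2.4.6, pandas 2.3.3, scipy 1.17.1 and pysam 0.24.0 on the GRCm38 sequence, and places with the GENCODE basic annotation of protein-coding genes. Two-sided exact permutation tests compared the libraries and exact sign-flip tests over the 13 other TAL1 lists compared the classes, with Benjamini-Hochberg adjustment over 8 tests. Ranks of shared sites were fitted with limma 3.58.1 (R 4.3.3, trend, 3 lists against 3), with adjustment over all 2713 sites. Tested on simulated data of this comparison, 200 of the 2713 sites were shifted by 15 rank points. The fit recovered 27 of these 200, with 2 false calls among the sites left unshifted, so most shifts of that size were below its reach. P-values measure only the spread between these libraries.

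Named sites were those of listed genes (140 genes in 8 lists, 139 found by symbol), the 10 strongest of a class by the lowest rank in its calling lists, and shared sites past limma. Sites named for equal-length lists were chosen after their values were seen. Members and lists were chosen with earlier results of these data known. Alternatives were an overlap of 50%, equal-length lists, −log10 p of at least 10, merging all 19 TAL1 lists, 2000 bp promoters, whole-peak motifs, other sets of lists, fold enrichment, chromatin length as a covariate and leaving out each list. GC measures were added after seeing the data. One other TAL1 list has a CTCF antibody label and was kept under its title. The FDR column, POL2 and input samples were not used here.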

Additional observations from a re-analysis of the deposited data

Results flagged for a closer look

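Among the 4 Low pass TAL1 lists, the list of 260 bp stood far from the other 3 in 3 of 18 groups of values checked. It called 11.1% of the 50 M sites, against 0.388% to 1.17% in the other 3 Low pass lists. It called 5.05% of the mixed sites, against 0.697% to 1.22%. Of the 42 50 M sites of equal-length lists it called 50%, against 0% to 2.38%. Its 2751 peaks make it the longest of the 4, which hold 1212 to 1726 peaks otherwise, and it called 81.4% of the shared sites against 41.2% to 53.1%. Chance alone flags about 1 in 20 groups of this size. The list of 260 bp also comes from the 50 M series. The part of list length or series in these values was not tested.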

How the results depend on the processing

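Of 132 alternative values, 91 kept their direction and side of the threshold, or stayed within 1.5 times the count. Equal-length lists gave 42 50 M and 42 20 M sites and turned the median width (26.3 bp wider with 50 M, exact permutation p = 0.4), the composite share (0.217 points higher) and the CTCF overlap (0.0472 points higher). Peaks with −log10 p of at least 10 gave 339 50 M, 0 20 M and 1652 shared sites. Leaving out 1 list gave 534 to 2340 50 M sites (2340 without the 240 bp list), 1 to 3 20 M sites, 0 to 7 shared sites ranked higher and 0 to 5 lower by limma (7 and 4 without the 190 bp list). Recall differences then ran from 1.28 to 10.6 points for 50 M minus 20 M sites (exact sign-flip permutation p from 0.00195 to 0.57). For 50 M minus mixed sites they ran from −4.72 to 1.58. Without the 240, 226 and 205 bp lists they were −4.72, −4.34 and −4.19 (exact sign-flip permutation p = 0.00195, 0.00684 and 0.00195). Without the 190 bp list the value was 1.15 (exact sign-flip permutation p = 0.00781). For 20 M minus mixed sites they ran from −8.97 to −5.13 (exact sign-flip permutation p from 0.00195 to 0.0703), against −4.25 with all 6 lists. The 20 M class held only 1 to 3 sites in these settings, so every difference with that class, and its p-value, rests on those few sites. Mixed sites kept 3 calls in these fits while a side with 2 lists needed 2, so the classes were not matched in calls. The part of this in the differences was not tested. By limma, ranks among all peaks of a list gave 540 higher and 1 lower, with a median shift of 13.05 points since the 50 M lists are longer. Fold enrichment gave 0 and 0, and ranks within GC bins, added after seeing the data, 0 and 2. Without 1 list, the rho difference with GC ran from −0.163 to −0.115. No paired analysis was possible because the labels give no replicate numbers. Read depth, which the lists do not hold, limits every comparison of peak number.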

Other observations

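Genes with 3 50 M sites within the gene or 10 kb of it were Rere, Sik3 and Uvrag. Sik3 encodes a kinase of the salt-inducible family and Uvrag an autophagy protein. The gene models Gm20388 and Gm37240 had 4 each. Repeats covered at least 50% of the middle 500 bp at 4.66% of the 50 M sites and 3.72% of the shared sites, against 5.88% of all 9914 sites. Sites called in a single list of the 6 numbered 51 (240 bp), 783 (226 bp) and 1820 (205 bp) for 50 M cells, against 29 (256 bp), 23 (202 bp) and 22 (190 bp) for 20 M cells.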
